A study of Mus musculus with 2 samples.

Results

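The genes described here encode the secreted factors and the receptors of the VEGF and angiopoietin systems. For VEGF these are the ligand genes Vegfa, Vegfb and Vegfc and the receptor genes Flt1, Kdr and Flt4. For the angiopoietins they are the ligand genes Angpt1 and Angpt2, the receptor gene Tek, and Tie1, which encodes a related receptor that pairs with Tek. Members were chosen by name, as all probe sets that the array's annotation assigns to these 10 symbols. That gave 19 of the 34958 probe sets with 1 gene symbol, and 10 of the 18194 genes these name. RNA of E14.5 wild type whole mouse embryos, isolated with RNAzol and labelled with biotin, was hybridised to 2 Affymetrix Mouse Genome 430 2.0 arrays, run as duplicates of 1 condition. Nothing was therefore compared between groups and no test was possible. It is not given whether these 2 arrays had embryos or RNA of their own, so that differences between them may be purely technical. Strain is not given for the arrays, and the paper names NMRI and C57/BL6 for its E14.5 embryos. Because whole embryos were used, fewer cells of a type and less RNA per cell cannot be told apart, and a signal does not locate a transcript.

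VEGF ligands drive the formation and sprouting of blood and lymphatic vessels by binding receptor tyrosine kinases on endothelial cells. Angiopoietins act on the kinase Tek (also known as Tie2) and regulate how newly formed vessels mature and are remodelled. Both systems are required for the embryo's vasculature, and their receptors mark endothelium, whereas the ligands are also made by surrounding tissues.

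All 10 genes gave a signal above background on both arrays. Signals are scaled intensities on a linear scale, on which the trimmed mean of each array is 100. The background bound was the signal below which 95% of the probe sets for odour, pheromone and bitter taste receptors lay, and it was 27.9 on array 1 and 33.8 on array 2. A gene was taken as above background if each array had 1 or more of its probe sets over the bound, not necessarily the same one. Of all genes, 65.5% did so. The share rose with the number of probe sets, from 48.6% of the genes with 1 probe set to 82.8% of those with 2 or more, and the family holds 4 genes of the first kind and 6 of the second. Of the 19 probe sets, 13 were above the bound on both arrays, beside 55.6% of all probe sets with 1 symbol. Different probe sets respond differently to the same amount of transcript, so a signal is read here against the bound and against its duplicate, and the genes are not ranked by level.

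**Figure D1:**
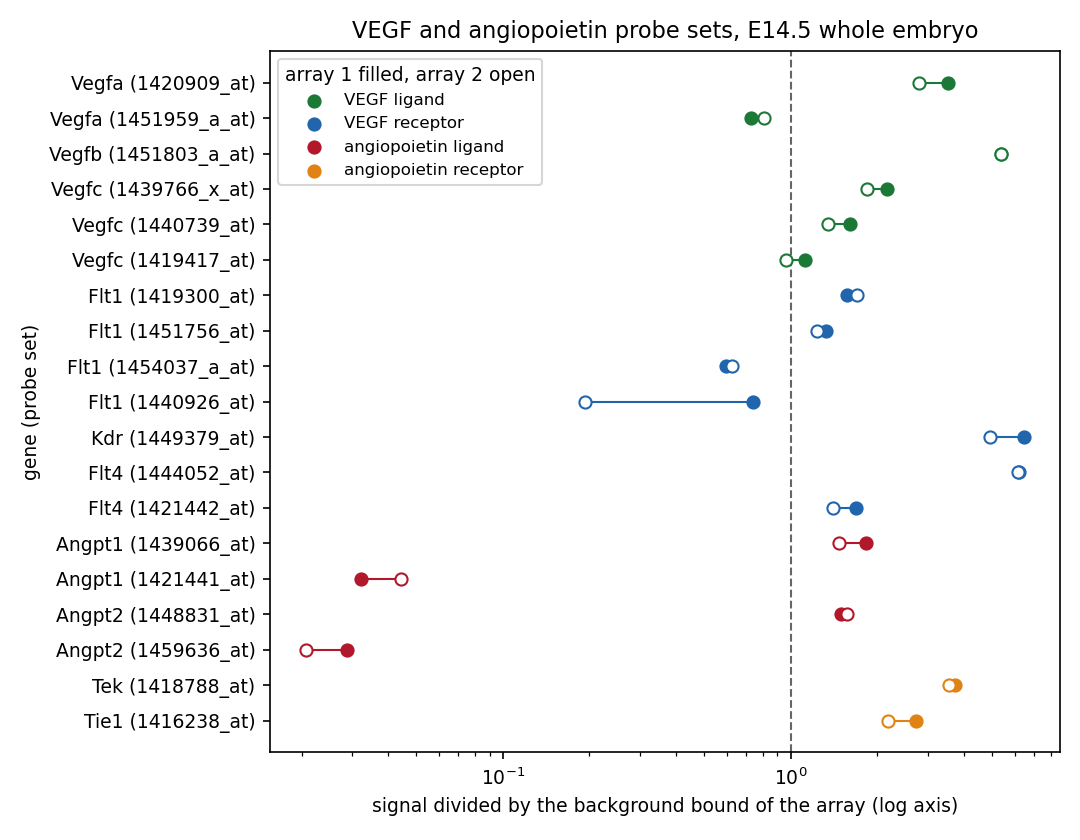
Signal of each of the 19 probe sets divided by the background bound of the array, on a log axis, with array 1 filled, array 2 open and the bound as a dashed line; each row is 1 probe set, ordered by role. Each of the 10 genes has at least 1 probe set to the right of the line on both arrays, and Angpt1 and Angpt2 each have a second one far to its left.

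All 3 VEGF ligand genes were above the bound, Vegfa with 1 of 2 probe sets, Vegfb with its only one and Vegfc with 2 of 3. Vegfa, the main growth factor for blood vessel sprouting and a ligand of Flt1 and Kdr, had signals of 98.0 on array 1 and 94.7 on array 2 with probe set 1420909_at (mean 96.4 ± 2.3, SD, n = 2). Its other probe set, 1451959_a_at, stayed below the bound at 20.3 and 27.3. The 2 probe sets of Vegfa thus lay on opposite sides of the bound on both arrays. Vegfb, which binds Flt1 and has been linked mainly to heart and muscle, is measured by 1 probe set, 1451803_a_at, with 150.6 and 181.5 (mean 166.1 ± 21.8, SD, n = 2), which were 5.40 and 5.37 times the bound.

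Vegfc, the growth factor for lymphatic vessels and a ligand of Flt4, was measured by 3 probe sets. The highest, 1439766_x_at, gave 60.5 and 62.4 (mean 61.5 ± 1.3, SD, n = 2). The next, 1440739_at, gave 44.8 and 45.5 and was also above the bound on both arrays. The third, 1419417_at, lay at the bound itself, above it on array 1 at 31.4 and below it on array 2 at 32.6. The order of these 3 probe sets was the same on both arrays and the gaps between them were larger than the differences between duplicates. The highest is of a kind (suffix x) that can cross-hybridise with other transcripts. Without such probe sets Vegfc still passed, through 1440739_at.

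All 3 VEGF receptor genes were above the bound, Kdr with its 1 probe set, Flt4 with both of its probe sets and Flt1 with 2 of 4. Kdr (VEGFR2), the receptor that carries most of the signal of Vegfa in endothelium, has 1 probe set, 1449379_at, with 180.2 on array 1 and 166.9 on array 2 (mean 173.6 ± 9.4, SD, n = 2). These were 6.46 and 4.94 times the bound. Flt4 (VEGFR3), the receptor of Vegfc, which is needed for lymphatic and early blood vessels, had 172.8 and 208.5 with 1444052_at (mean 190.7 ± 25.2, SD, n = 2). With 1421442_at it had 47.0 and 47.5, 1.68 and 1.41 times the bound, so that both of its probe sets passed.

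Flt1 (VEGFR1) binds Vegfa tightly but signals weakly, and it also has a soluble form that holds ligand away from Kdr. Its 4 probe sets were divided. Signals of 1419300_at were 43.7 and 57.6 (mean 50.7 ± 9.8, SD, n = 2), and those of 1451756_at were 37.1 and 41.8. These 2 were above the bound on both arrays and never reached 2 times the bound. Signals of 1454037_a_at were 16.6 and 21.1, below the bound on both. The fourth, 1440926_at, was below the bound as well and differed most between the duplicates of all 19, at 20.6 on array 1 and 6.5 on array 2, a ratio of 3.17. Which transcript form each probe set reads was not analysed here.

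In the angiopoietin system both ligand genes passed with 1 of 2 probe sets, and both receptor genes with their only one. Angpt1, the activating ligand of Tek, which is secreted mainly by cells around vessels, had signals of 50.8 and 49.7 with 1439066_at (mean 50.3 ± 0.8, SD, n = 2). With 1421441_at it had only 0.9 and 1.5. Angpt2, which is released by endothelial cells and can oppose Angpt1 at Tek, had 41.9 and 53.1 with 1448831_at (mean 47.5 ± 7.9, SD, n = 2) and 0.8 and 0.7 with 1459636_at. For both angiopoietins, then, the call rests on 1 probe set, while the other lay among the lowest signals, at percentile 2.99 and 4.20 of the array's probe sets for Angpt1 and 2.50 and 1.27 for Angpt2.

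Tek, the angiopoietin receptor, had signals of 104.3 and 120.4 with its only probe set, 1418788_at (mean 112.4 ± 11.4, SD, n = 2). Tie1, a related receptor that pairs with Tek and modulates its signal, had 76.3 and 73.7 with 1416238_at (mean 75.0 ± 1.8, SD, n = 2). Both exceeded 2 times the bound on both arrays. Across the family, Vegfc, Flt1, Angpt1 and Angpt2 passed by less than 2 times the bound on 1 or both arrays. These are 4 of 10 genes, beside 20.9% of all genes above background. Probe sets on both sides of the bound were found for 5 of the 6 members with 2 or more probe sets (Flt4 being the exception), counting a probe set as above only where it passed on both arrays. Over all genes with 2 or more probe sets the share was 53.3%. That group includes genes with no probe set above, which cannot lie on both sides, whereas the members all passed. The share is therefore low as a comparison.

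The duplicates gave close signals for the member probe sets above the bound on both arrays. Of these 13, none differed by more than 1.5-fold after centring, where 3.74% of all such probe sets did. With only 13 probe sets, none is an ordinary outcome at that share. Member probe sets below the bound were left out, among them 1440926_at of Flt1 with a ratio of 3.17. The log2 difference of the 13 was array 2 minus array 1, centred on the median of all 22138 probe sets above the bound. It had a median of 0.03, beside 0 over all by construction, and an SD of 0.17, beside 0.26. It ran from -0.12 for Kdr to 0.39 for Flt1 (1419300_at), with 9 probe sets higher on array 2 and 4 lower. The probe sets with the widest gaps, those of Flt1, Angpt2 (0.33), Flt4 (0.26 with 1444052_at) and Vegfb (0.26), were all higher on array 2. Spread between the duplicates depended on the signal over the whole array. The SD of the log2 difference was 0.31 for probe sets under 2 times the mean bound and 0.17 for those over 10 times it, and the highest probe sets of Flt1, Angpt1, Angpt2 and Vegfc lie in the first range.

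**Figure D2:**
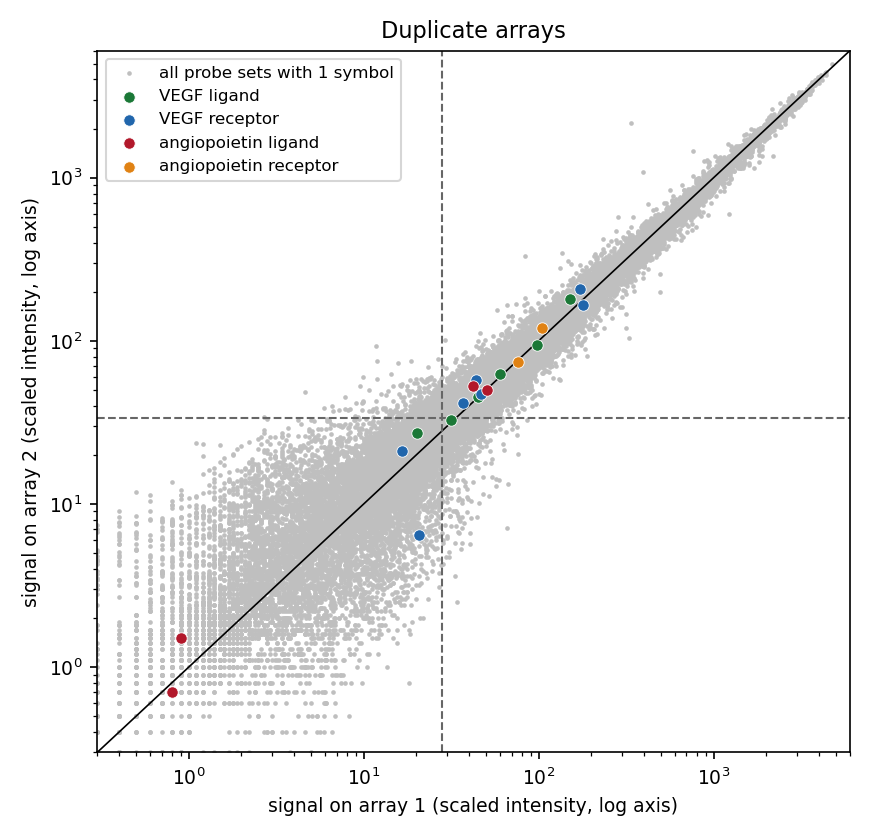
Signal on array 1 against signal on array 2, both on log axes, for all probe sets with 1 symbol (grey, those with a signal of 0 left out) and for the 19 member probe sets (coloured by role); the solid line marks equal signals and the dashed lines the bounds. The 13 member probe sets in the upper right quadrant lie close to the line, and the point farthest from it is a Flt1 probe set below both bounds, at 20.6 and 6.5.

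Partners of the same pathways were above background in 8 of 10 cases. Of all genes 65.5% were, with 48.6% of those with 1 probe set and 82.8% of those with 2 or more. This and the following lists hold genes of both kinds, and their counts are to be read beside these shares. Among the partners that passed was the ligand gene Pgf, which encodes the placental growth factor that binds Flt1, at 34.6 and 40.0. Another was Vegfd, a second ligand of Flt4, at 86.4 and 88.7. The coreceptor genes Nrp1 (719 and 733) and Nrp2 (268 and 265) passed as well. Ccbe1, which encodes a secreted protein that helps to activate Vegfc, passed through a different probe set on each array, at 38.0 on array 1 and 40.8 on array 2 (named after its values were seen). Those below were Angpt4, a further angiopoietin gene, at 24.3 and 32.3, and Esm1, which is induced in endothelium by VEGF, at 4.1 and 7.2. Of 13 measured genes for proteins that act downstream of the receptors, 12 passed, including Plcg1 (305 and 334), which encodes the phospholipase recruited by Kdr, and the adaptor genes Shc1, Grb2 and Grb10. The exception was the adaptor gene Sh2d2a at 7.5 and 9.5.

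Vegfa is a classic target of the hypoxia-inducible factors. All 8 genes of oxygen sensing were above background, among them the factor genes Hif1a (782 and 769), Epas1 (332 and 360) and Arnt (108 and 111), and Vhl, which encodes the protein that marks the factors for degradation, at 192 and 184. Of 8 genes known to respond to hypoxia, 7 passed, including the glucose transporter gene Slc2a1 (1518 and 1628), Bnip3 (348 and 374) and Pdk1 (521 and 568). The exception was Adm, the adrenomedullin gene, which was above the bound on array 1 at 30.2 and below it on array 2 at 26.7.

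Genes listed as markers of vessel wall cells were above background in both lists. Whether their signals came from vessel walls was not tested. All 19 endothelial markers passed, among them Pecam1 (52.2 and 38.8), the vascular cadherin gene Cdh5 (66.8 and 62.1), Emcn (107 and 83.3) and Esam (174 and 179). On array 2 Pecam1 lay near the bound of 33.8, and it did not pass the 99th percentile bound of 41.4. The summed signal of the 19, with 1 probe set for each gene, was 2577 on array 1 and 2523 on array 2. Of these markers 8 were higher and 11 lower on array 2, with a median log2 difference of -0.05. All 11 genes of pericytes and smooth muscle passed, including Pdgfrb, Cspg4, Rgs5 and Acta2, with summed signals of 4331 and 4109, of which Acta2 alone gave 2325 and 2144. Among them Rgs5, a pericyte gene, had 115.6 on array 1 and 70.9 on array 2, which made it the 1 gene of the list with more than 1.5-fold between the arrays.

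Genes of arteries, veins and sprouts were above background in 13 of 14 cases. Dll4, the Notch ligand of tip cells, lay at the bound, with 36.9 on array 1 and 32.4 on array 2 for its highest probe set, and it passed on array 2 through its other one. Notch1 had 349 and 341, Notch4 76.4 and 94.8, and the Notch target Hey1 106 and 92.1. Gja5, an arterial connexin gene, was the exception at 1.2 and 0.9. In the lymphatic list 5 of 6 passed. Lyve1 (145 and 168), Pdpn (525 and 542) and Mmrn1 (95.4 and 92.1) were above the bound, while Prox1, the transcription factor gene that specifies lymphatic endothelium, was below it at 20.9 and 19.6 for the highest of its 3 probe sets.

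Cells of the blood lineage can also carry members of these systems. Macrophage markers passed in 5 of 6 cases, with Csf1r at 1048 and 1044, Adgre1 at 193 and 194, Cd68 at 66.6 and 81.8 and Cx3cr1 at 89.7 and 74.8, and Aif1 was above the bound on array 1 only, at 30.3 and 33.4. Blood progenitor and megakaryocyte markers passed in 4 of 5, with Kit at 130 and 155, Itga2b at 136.5 and 124.7 and Pf4 at 760 and 714, and with Gp9 above the bound on array 1 only, at 35.6 and 20.7. What part each cell type had in the members' signals was not tested.

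**Figure D3:**
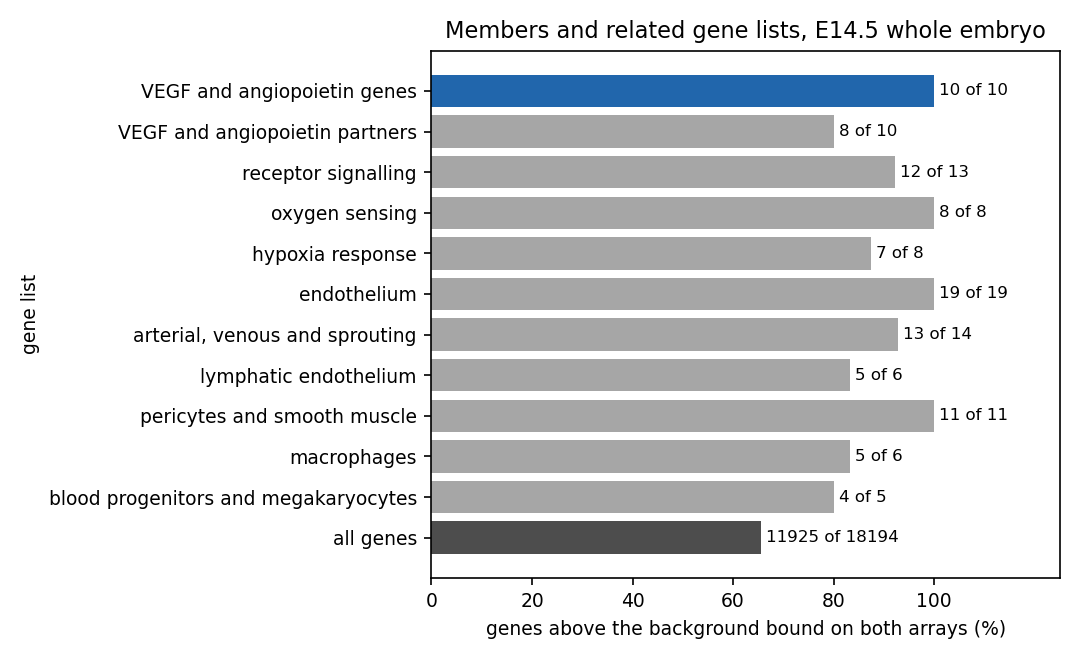
Genes above the background bound on both arrays as a percentage of the genes measured in each list, with the numbers of genes at the end of each bar. The VEGF and angiopoietin genes, the endothelial markers, the genes of oxygen sensing and those of pericytes and smooth muscle reach 100%, and all genes of the array reach 65.5%. The share over all genes is 48.6% for those with 1 probe set and 82.8% for those with 2 or more.

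The members lie on 7 chromosomes in the mouse. Flt1 and Kdr share chromosome 5, Tek and Tie1 share chromosome 4, and Vegfc and Angpt2 share chromosome 8. Promoter windows of 250 bases before a transcription start (RefSeq, GRCm38.p6) were at hand for 8 of the 10 genes, with 2 windows for Vegfa and 1 for each of the others. Endothelial genes are widely known to be controlled by ETS family factors, whose binding sites share the core GGAA. The windows of 4 endothelial receptor genes are printed to show how this core is spread in them. Capitals mark it, written as GGAA or, on the other strand, as TTCC. The windows are chr5:147726012-147726261 for Flt1 and chr5:75978456-75978705 for Kdr on the minus strand, chr4:94739039-94739288 for Tek on the plus strand and chr4:118489850-118490099 for Tie1 on the minus strand.
Flt1: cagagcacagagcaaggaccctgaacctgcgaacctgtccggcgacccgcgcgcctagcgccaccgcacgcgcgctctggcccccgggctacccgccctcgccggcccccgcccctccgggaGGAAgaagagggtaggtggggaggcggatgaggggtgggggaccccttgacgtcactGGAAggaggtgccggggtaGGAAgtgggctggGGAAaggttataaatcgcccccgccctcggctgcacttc
Kdr: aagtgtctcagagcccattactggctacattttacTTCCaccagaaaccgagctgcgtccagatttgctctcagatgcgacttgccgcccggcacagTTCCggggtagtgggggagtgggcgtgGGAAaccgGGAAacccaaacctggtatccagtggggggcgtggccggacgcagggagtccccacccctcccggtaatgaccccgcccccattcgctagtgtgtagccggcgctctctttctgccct
Tek: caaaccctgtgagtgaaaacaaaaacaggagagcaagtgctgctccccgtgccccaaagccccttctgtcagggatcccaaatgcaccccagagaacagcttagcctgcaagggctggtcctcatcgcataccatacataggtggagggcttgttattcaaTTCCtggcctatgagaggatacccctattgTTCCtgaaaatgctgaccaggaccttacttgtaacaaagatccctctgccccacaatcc
Tie1: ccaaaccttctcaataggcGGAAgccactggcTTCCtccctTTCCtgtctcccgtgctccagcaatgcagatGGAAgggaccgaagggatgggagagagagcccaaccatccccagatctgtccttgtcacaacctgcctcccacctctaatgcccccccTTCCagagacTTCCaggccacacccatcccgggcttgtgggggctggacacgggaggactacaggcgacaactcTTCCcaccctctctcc

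The core occurred 4 times in the window of Flt1, 4 times in that of Kdr, 2 times in that of Tek and 7 times in that of Tie1. In the member windows not printed, the core occurred 2 times for Flt4, 1 time each for Vegfb and Vegfc, and 6 and 2 times for Vegfa. It is a frequent word, found in 93.4% of the 32851 windows of all genes with a median of 3 per window, and 8.69% of windows held 6 or more, as did those of Tie1 and of Vegfa (6 in the window of the upstream start). Flt1 had the 1 member window of 9 with a TATA motif (TATAAA, either strand), whose first base lies 31 bases before the start. Of all windows 12.4% held this motif. G and C made up 51.2% of the bases in the window of Tek and 59.2% to 76.4% in the other member windows. The median over all windows was 52.4%, and the motif counts took no account of base content. The GC box (GGGCGG, either strand, overlapping matches counted) was in 7 of the 9 member windows and in 32.7% of all windows, and the windows of Tek and Tie1 were the ones without it. These 2 also had the lowest ratio of observed to expected CpG, at 0.13 for Tek and 0.28 for Tie1, whereas Vegfc had 0.96, Flt1 0.74, Vegfb 0.74, Kdr 0.68, Flt4 0.55 and Vegfa 0.51 and 0.37 in its 2 windows. The median over all windows was 0.37. The core of the hypoxia response motif (ACGTG or GCGTG, either strand) was in 4 of the 9 member windows, beside 38.6% of all windows. Vegfa had 0 matches in the window of its upstream start and 2 in the other. Sites outside the 250 bases were not searched, so these counts do not bear on hypoxia control of Vegfa. A match is a string of letters, and binding was not measured.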

How the data were processed

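Whole wild type embryos of E14.5 were measured as total RNA on 2 arrays (Affymetrix Mouse Genome 430 2.0). The authors made the deposited signal intensity values with GCOS 1.3, named in the submitters' processing notes. They are linear, 1 value per probe set and array, scaled to a mean of 100 after trimming of 2% at each end. Detection calls were not used here, and the receptor bound (81 probe sets) stood in their place. The number of arrays limits the precision.

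Gene names follow the platform annotation. For 34754 of the 34958 probe sets with 1 symbol, current symbols were looked up by gene identifier in RefSeq (GRCm38.p6). Probe sets with several symbols (932) or none listed (9211) named no gene. A gene in a list is shown by its probe set with the highest mean signal. Log2 differences used probe sets above the bound on both arrays.

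The members and the 10 lists (103 names, 100 measured) were chosen with earlier results of these data known. Named are all members, the first 4 measured genes of each list and exceptions up to 5, and Ccbe1, which was added after its values were seen. The promoter motifs and the windows printed were chosen after the signals were seen. Genes with a similar pattern were not sought, since 2 arrays of 1 condition give no pattern. No p-value was computed. Alternatives were other bounds, each array alone, other rules for several probe sets, removal of probe sets with the suffix s or x, and, for signals and differences, quantile normalization, no centring and no filter with a pseudocount of 16. Steps were tested on simulated data, in which signals of expressed genes lay mostly far above the bound. Calls of expressed genes near the bound were therefore hardly covered by it. Python 3.11.15, pandas 2.3.3, numpy 2.4.6 and matplotlib 3.10.9 were used.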

Additional observations from a re-analysis of the deposited data

How the results depend on the processing

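All 10 genes stayed above background with the 90th and 99th percentile bounds, the array median as bound, either array alone, removal of probe sets with the suffix s or x, and the demand that 1 probe set pass on both arrays. Of these settings, the lower 90th percentile bound and either array alone could not lose a gene that had passed on both arrays. Removal of suffix s or x and the demand for 1 probe set on both arrays could not lose a member either. Each member had a probe set without these suffixes above the bound on both arrays, as described above. The bound on the 2 arrays moved to 22.4 and 28.8 with the 90th percentile and to 33.9 and 41.4 with the 99th. When all probe sets of a gene had to pass, the count was 5, with Vegfa, Vegfc, Flt1, Angpt1 and Angpt2 lost, and 39.1% of all genes passed. That rule also gave 4 pathway partners, 5 genes of receptor signalling, 4 of oxygen sensing, 8 of arteries, veins and sprouts, 3 of lymphatic endothelium and 7 of pericytes and smooth muscle. It is stricter by construction for genes with more probe sets. With the mean over all probe sets of a gene in place of the highest, signals moved to 60.1 for Vegfa, 46.2 for Vegfc, 30.6 for Flt1, 119.0 for Flt4, 25.7 for Angpt1 and 24.1 for Angpt2. With the 99th percentile bound, which 61.9% of all genes passed, the counts were 6 of 10 pathway partners (8 before), 5 of 8 hypoxia response genes (7 before), 11 of 14 genes of arteries, veins and sprouts (13 before) and 17 of 19 endothelial markers (19 before), and the other 6 lists kept their counts. The number of member probe sets above the bound was 13 or 14 under its alternatives. The median log2 difference of the members stayed within -0.02 (quantile normalization) and 0.09 (without suffix s or x), and changed sign in the first case. These shifts were smaller than the SD of 0.17. That SD is the spread of the 13 single probe sets and so a wide limit for a median. In all, 121 of 134 recomputed values moved by less than the limits used (1.5 times for counts, 1 SD for signals and differences), and the other 13 are those given here. Signals from 1 array could not pass the limit, since either value always lies within 1 SD of the mean of the 2. Nor could the member counts with 1 array or with the lower bound. The 121 thus include values whose label was fixed in advance. No paired analysis was possible because there is 1 group. With 2 arrays, single signals near the bound are the least certain.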
